A study of Mus musculus with 6 samples.

Results

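The genes of DNA replication and of the passage from G1 into S phase were examined in mouse haematopoietic stem and progenitor cells with and without Raptor. They are a list of 33 genes chosen by the function of their products, with no measured value in the rule. Of the 33, 32 had a probe set naming that gene alone in the annotation table used here, out of 18193 genes in all. Chaf1a was not analysed here. Each gene is represented by its brightest probe set, judged by the mean of the 6 arrays, and 26 of the 32 had further probe sets, which are described below.

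A cell enters S phase when cyclin E with its kinase CDK2 and the E2F transcription factors turn on the replication machinery. Helicases made of MCM proteins are loaded on origins by CDC6 and CDT1, are switched on with CDC45 and the GINS complex, and open the DNA for the polymerases, which the sliding clamp PCNA holds in place. Most long-term haematopoietic stem cells are quiescent and progenitors cycle, and RNA of most of these genes is higher in cycling than in resting cells. Raptor is the subunit that defines mTORC1, a kinase complex that couples nutrients and growth factors to cell growth.

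All mice were on a C57BL/6 background and were homozygous for a Raptor allele in which loxP sites flank exon 6. The Raptor mutant group (3 arrays) also had the MxCre transgene, which puts Cre under an interferon-responsive promoter that is active in many cell types besides blood cells, and the wild type group (3 arrays) did not. Controls and mutants alike had 3 injections of 15 µg pIpC per g of body weight within 5 days, a double-stranded RNA mimic that induces interferon. The sort came 5 weeks afterwards and took Flt3-Lin-Sca1+cKit+ bone marrow cells. The labels do not tell if the 3 arrays of a group are separate mice or pools. The p-values therefore cover the spread between arrays alone, which may in part be technical. Wild type array 1 lacked the Y-linked signal of wild type arrays 2 and 3 (below), so these arrays do not all come from the same cells.

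The 6 arrays had median signals of 6.85 to 6.94 on the log2 scale. The Y-linked genes Eif2s3y and Kdm5d had log2 signals of 9.53 to 10.8 on wild type arrays 2 and 3, while all remaining arrays gave 3.60 to 4.53. A fit that takes up this split, called the Y-linked covariate below, leaves wild type array 1 as the sole control. Wild type array 1 also correlated more closely with the mutant arrays (r of 0.977 to 0.984 across probe sets, which are not replicates) than with the other wild type arrays (0.962 and 0.967). Rptor itself, by its 3 probe sets, gave log2 fold changes of 0.22, -0.32 and 0.99 (limma adjusted p of 0.79, 0.69 and 0.56), and they do not check the deletion, since their position in the gene was not analysed here. Of the sort markers, Kit had log2 signals of 10.7 to 11.2 and Flt3, on whose absence cells were sorted, of 9.51 to 10.8. Ly6a, which encodes Sca1, was not analysed here.

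The replication and G1/S genes gave no called difference between mutant and wild type cells, and their estimates were small. None of the 32 was called at a limma adjusted p under 0.05, where 0.110% of all genes were, and their adjusted p-values ran from 0.42 to 0.99. At an unadjusted p under 0.05 in the same fit, 2 of 32 (6.25%) were higher in mutant arrays, where 5.81% of all genes were, and 0 were lower, where 4.24% of all genes were. Both shares lie near those of all genes or below them. The 2 genes were Mcm10, a factor of helicase activation, and Tk1, thymidine kinase. In bulk RNA, a change in the share of cycling cells and a change in RNA per cell cannot be told apart.

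The intervals show how large a difference the brightest probe sets could still hold, in the fit without a covariate. Dimmer probe sets, described below, gave larger estimates for some genes and smaller ones for others. For 30 of 32 genes the 95% confidence interval of the log2 fold change lay wholly inside a 2-fold change in either direction, and for 15 of 32 inside a 1.5-fold change. The intervals that reached beyond 2-fold were those of Mcm10 (0.07 to 1.05) and Tyms (-0.12 to 1.05), each on the side of higher signal in mutant arrays. Half-widths had a median of 0.40, against 0.47 over all genes. The wild type arrays also differed less among themselves for these genes, with a median SD of 0.15 against 0.29 over all genes, whereas the mutant arrays gave 0.16 for both.

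**Figure D1:**
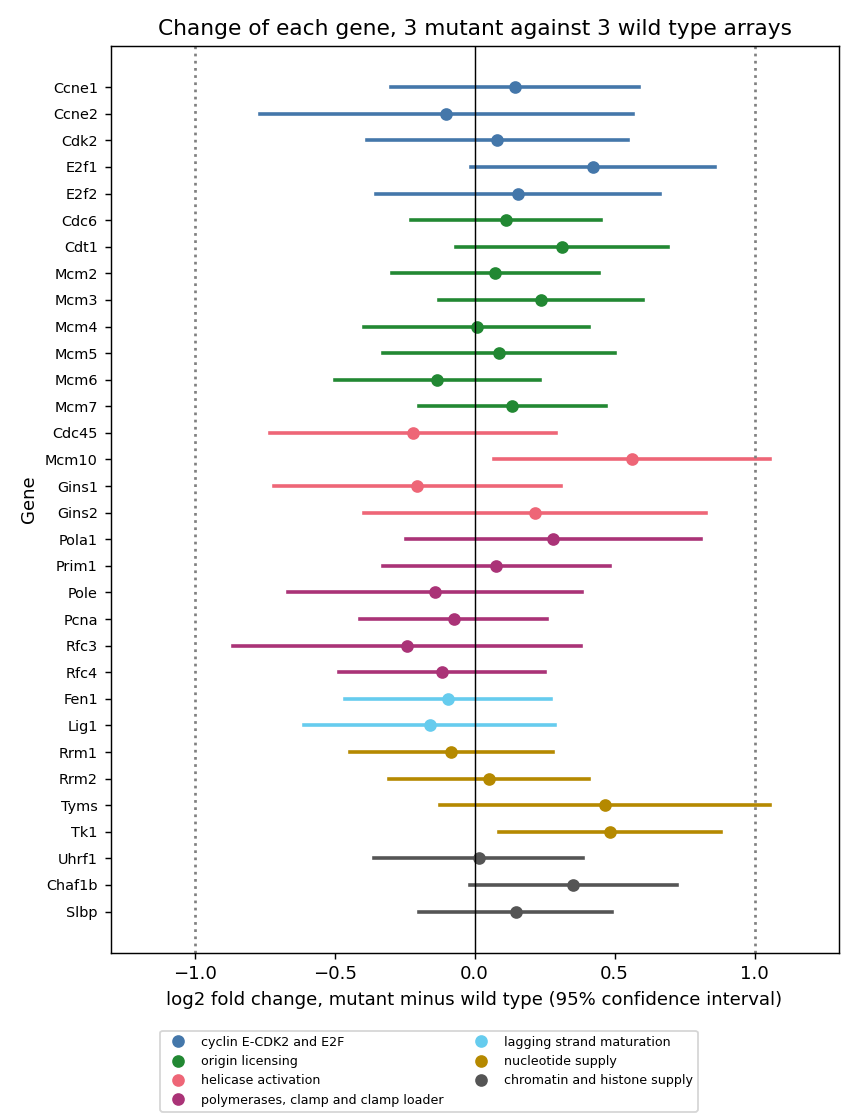
Log2 fold change of each of the 32 genes, mutant minus wild type (points), with its 95% confidence interval from limma (bars; n = 3 arrays per group), coloured by role; dotted lines mark a 2-fold change. Intervals of 30 genes stay between the dotted lines, and those of Mcm10 and Tyms pass the right one at 1.05.

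The direction leaned slightly towards higher signal in mutant arrays. Log2 fold changes were positive for 21 of 32 genes (65.6%) and negative for 11, with a median of 0.08. Over all genes 40.4% were positive and the median was -0.07. Among the brighter 50% of genes, to which 31 of the 32 belong, 58.5% were positive and the median was 0.06. The median was 0.11 without wild type array 1. With the Y-linked covariate it was 0.03, and the median of all genes was then 0.04.

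In 6 of 32 genes (18.8%) every mutant array stood above every wild type array, where 8.08% of all genes did so, and in 0 of 32 every mutant array stood below, where 7.98% of all genes did. Among the brighter 50% of genes, 1215 of 9096 stood above in this way and 662 below. The 6 genes were Tk1, Mcm10, E2f1, Chaf1b, Tyms and Mcm3. They come from 5 of the roles described below, and none was called across all genes.

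**Figure D2:**
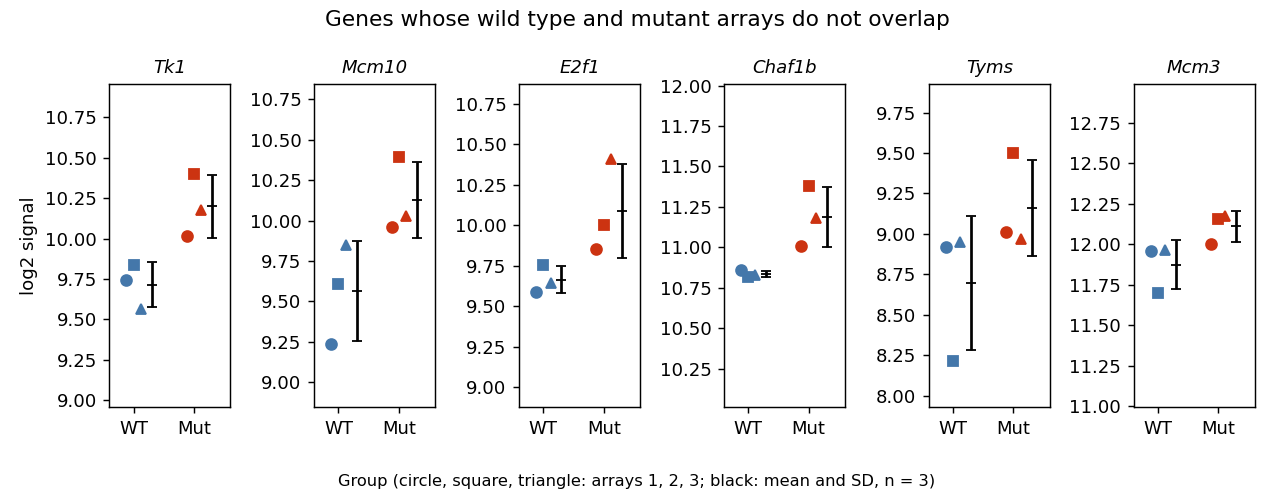
Log2 signal on each array (vertical axes, each spanning 2 log2 units) for the 6 genes whose wild type (blue) and mutant (red) arrays do not overlap; symbols number the arrays, and black bars give the mean and SD (n = 3). Gaps are small beside the spread in Tyms (8.95 against 8.97) and wider in Tk1 (9.84 against 10.02).

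Among the drivers of S phase entry, E2f1, an activating E2F factor, had log2 signals of 9.59, 9.75 and 9.65 on wild type arrays 1 to 3 and of 9.85, 9.999 and 10.41 on mutant arrays 1 to 3. Every mutant value was above every wild type value, and the highest was that of mutant array 3. The log2 fold change was 0.42 ± 0.19 (SE; limma adjusted p = 0.51). E2f2, another activator, had a log2 fold change of 0.16 ± 0.22 with overlapping groups, at 0.33 without wild type array 1 and -0.19 with the Y-linked covariate. Ccne1 and Ccne2, the E-type cyclins, had log2 fold changes of 0.14 ± 0.19 and -0.10 ± 0.29, and their kinase Cdk2 one of 0.08 ± 0.20. Ccne2 spread over 6.23 to 7.06 among wild type and 6.16 to 6.98 among mutant arrays, so that its groups lay on top of each other.

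Among the origin licensing genes, 7 of 8 log2 fold changes were positive, with a median of 0.10. Cdc6, a loader of the MCM helicase, had log2 signals of 9.48 to 9.63 in wild type and 9.61 to 9.74 in mutant arrays, and a log2 fold change of 0.11 ± 0.15 (SE). Cdt1, its partner in loading, stood at 11.87, 11.62 and 11.61 on wild type arrays 1 to 3 and at 12.06, 12.13 and 11.86 on mutant arrays 1 to 3. Wild type array 1 lay within the mutant values and the other wild type arrays below them. The log2 fold change of Cdt1 was 0.31 ± 0.16 (limma adjusted p = 0.57). It was 0.40 without wild type array 1 and 0.15 with the Y-linked covariate.

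The MCM2 to MCM7 subunits form the ring of the replicative helicase. Their 6 genes had log2 fold changes of -0.13 (Mcm6) to 0.24 (Mcm3), with SE of 0.14 to 0.18. Mcm3 stood at 11.96, 11.70 and 11.97 in wild type and at 12.00, 12.16 and 12.18 in mutant arrays. The highest wild type and the lowest mutant value were 11.97 and 12.00, close together beside the spread within each group. Mcm4, at 0.01 ± 0.17, and Mcm2, at 0.07 ± 0.16, were the nearest to no difference. The 95% intervals of Mcm7 (-0.20 to 0.47), Mcm2 (-0.29 to 0.44), Mcm4 (-0.40 to 0.41), Mcm5 (-0.33 to 0.50) and Mcm6 (-0.50 to 0.23) all lay inside a 1.5-fold change. That of Mcm3 (-0.13 to 0.60) passed it slightly.

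Among the genes of helicase activation, Mcm10, which binds the loaded helicase and recruits DNA polymerase alpha, had the largest difference of the 32. It stood at 9.24, 9.61 and 9.85 on wild type arrays 1 to 3 and at 9.96, 10.39 and 10.03 on mutant arrays 1 to 3. The groups did not overlap, and wild type array 1 was the lowest. The log2 fold change was 0.56 ± 0.21 (SE), or 1.48-fold, with an unadjusted p of 0.031 and a limma adjusted p of 0.45. It was 0.40 without wild type array 1 and 0.86 with the Y-linked covariate, so the size depended on which wild type arrays were counted.

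The other helicase activation genes pointed either way, and their difference from Mcm10 was not tested. Cdc45, the helicase cofactor, had a log2 fold change of -0.22 ± 0.22 (SE), which was -0.38 without wild type array 1 and 0.07 with the Y-linked covariate. Gins1 and Gins2, both subunits of the GINS complex, pointed in opposite directions, at -0.20 ± 0.22 and 0.22 ± 0.26. Gins2 stood at 11.19 on wild type array 1 and at 11.87 and 12.00 on the other wild type arrays, a range that contains 2 of its mutant values (11.56, 12.16 and 11.99). Its log2 fold change was -0.03 without wild type array 1 and 0.70 with the Y-linked covariate.

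Polymerase, clamp and clamp loader genes had a median log2 fold change of -0.09, with 2 of 6 positive. Pcna, the sliding clamp, had log2 signals of 13.18, 13.34 and 13.24 in wild type and 13.17, 13.22 and 13.16 in mutant arrays. The groups overlapped, at a log2 fold change of -0.07 ± 0.14 (SE), and the 95% interval ran from -0.41 to 0.26. Pola1 and Prim1, subunits of the primase complex that starts each strand, had log2 fold changes of 0.28 ± 0.23 and 0.08 ± 0.17, and Pole, the leading strand polymerase, one of -0.14 ± 0.23. Pola1 was at 0.47 without wild type array 1 and at -0.04 with the Y-linked covariate, and Pole at -0.02 and -0.40. Rfc3 and Rfc4, subunits of the loader that opens the clamp, had ones of -0.24 ± 0.27 and -0.12 ± 0.16. Rfc3 stood at 9.23 on wild type array 1 and at 10.14 and 10.13 on the other wild type arrays, with the mutant arrays at 9.46 to 9.78 between them. Its log2 fold change was -0.54 without wild type array 1 and 0.32 with the Y-linked covariate. Fen1 and Lig1, the flap nuclease and the ligase that finish the lagging strand, had log2 fold changes of -0.10 ± 0.16 and -0.16 ± 0.19.

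The nucleotide supply genes had a median log2 fold change of 0.26, with 3 of 4 positive. Tk1, which salvages thymidine, stood at 9.74, 9.84 and 9.57 on wild type arrays 1 to 3 and at 10.02, 10.40 and 10.18 on mutant arrays 1 to 3. Its log2 fold change was 0.48 ± 0.17 (SE), or 1.40-fold, with an unadjusted p of 0.023 and a limma adjusted p of 0.42, the lowest of the 32. It differed little by choice of wild type arrays, at 0.50 without wild type array 1 and 0.48 with the Y-linked covariate. Tyms, the thymidylate synthase, stood at 8.92, 8.22 and 8.95 in wild type and 9.01, 9.50 and 8.97 in mutant arrays. Wild type array 2 was low and mutant array 2 high, and the other 4 arrays lay close together. The log2 fold change of Tyms was 0.47 ± 0.25 (limma adjusted p = 0.58), and 0.23 with the Y-linked covariate. Rrm1 and Rrm2, the subunits of ribonucleotide reductase, had log2 fold changes of -0.08 ± 0.16 and 0.05 ± 0.15.

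Of the genes that rebuild chromatin behind the fork, Chaf1b, a subunit of chromatin assembly factor 1, had nearly equal log2 signals of 10.86, 10.82 and 10.83 on the wild type arrays. The mutant arrays stood at 11.01, 11.38 and 11.18, all higher and further apart. The log2 fold change was 0.35 ± 0.16 (SE; limma adjusted p = 0.52). Uhrf1, which carries DNA methylation through replication, had a log2 fold change of 0.01 ± 0.16. Slbp, the binding protein of histone mRNA stem-loops, had one of 0.15 ± 0.15, with overlapping groups.

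**Figure D3:**
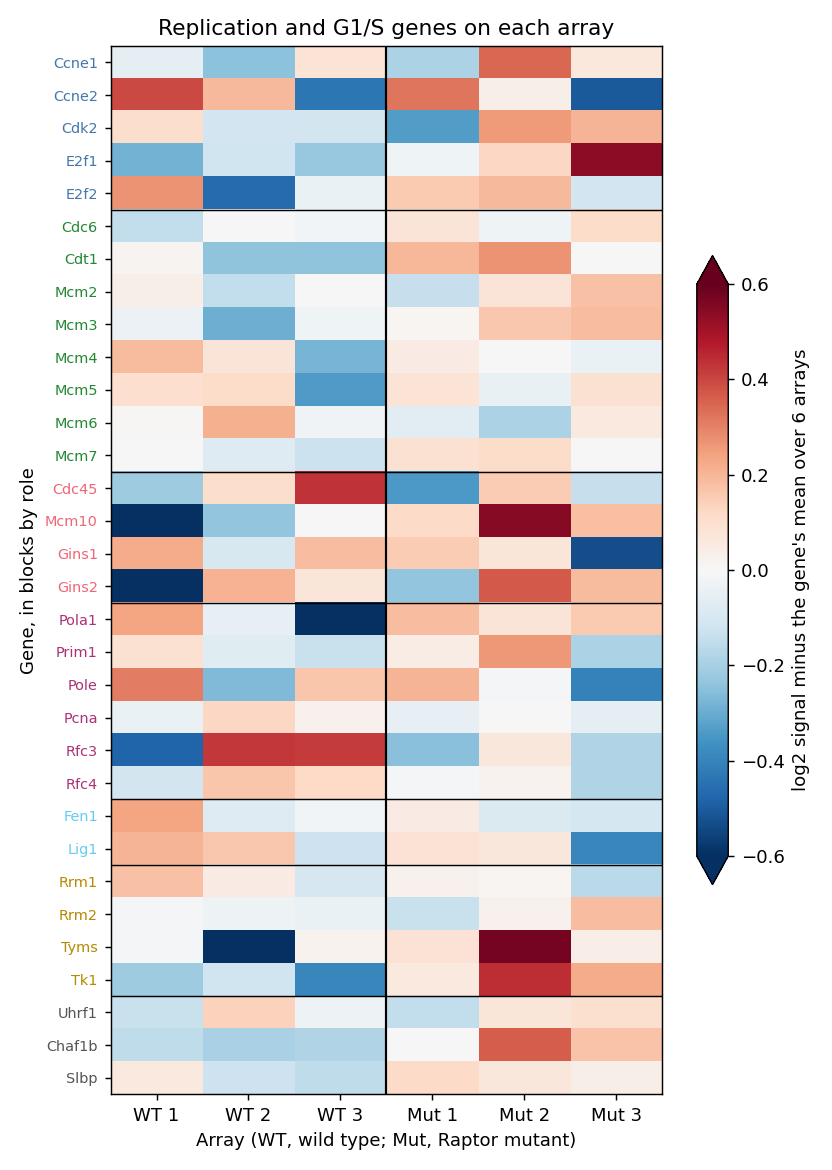
Log2 signal of each of the 32 genes on each array minus that gene's mean over the 6 arrays (colour; values beyond 0.6 take the end colours), in blocks by role, with wild type arrays on the left of the vertical line. Most columns mix both colours, and the medians over the genes run from -0.07 (wild type array 2) to 0.08 (mutant array 2).

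Array by array, the genes did not move as a block. The median deviation from a gene's own mean was 0.01, -0.07 and -0.03 on wild type arrays 1 to 3 and 0.05, 0.08 and 0.04 on mutant arrays 1 to 3. Mutant array 2 held the highest value of 10 genes and wild type array 1 that of 9. Mutant array 3 held the lowest value of 9 genes and wild type array 3 that of 7. High and low values therefore came from both groups.

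The 32 genes have 73 probe sets, and the dimmer ones did not always point the same way. Of 26 genes with several probe sets, 9 had the same sign in all of them. Mcm10 did so with the largest values, the dimmer ones giving log2 fold changes of 0.95 ± 0.24 and 0.71 ± 0.22 (SE; limma adjusted p over all probe sets of 0.31 and 0.39). All 5 probe sets of Mcm3 were positive, from 0.14 to 0.33, and so were all 4 of Mcm7, from 0.07 to 0.53. E2f1 divided, with -0.03 and -0.34 at its dimmer probe sets, E2f2 had one at -0.69 ± 0.24, and Chaf1b one at -0.26. Tyms ranged from -0.09 to 0.78 and Cdt1 from -0.15 to 0.68. Of the 41 probe sets not used, 5 were higher and 1 lower at an unadjusted p under 0.05, and 0 were called. Over all 34945 probe sets, 3280 passed that unadjusted threshold in either direction.

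**Figure D4:**
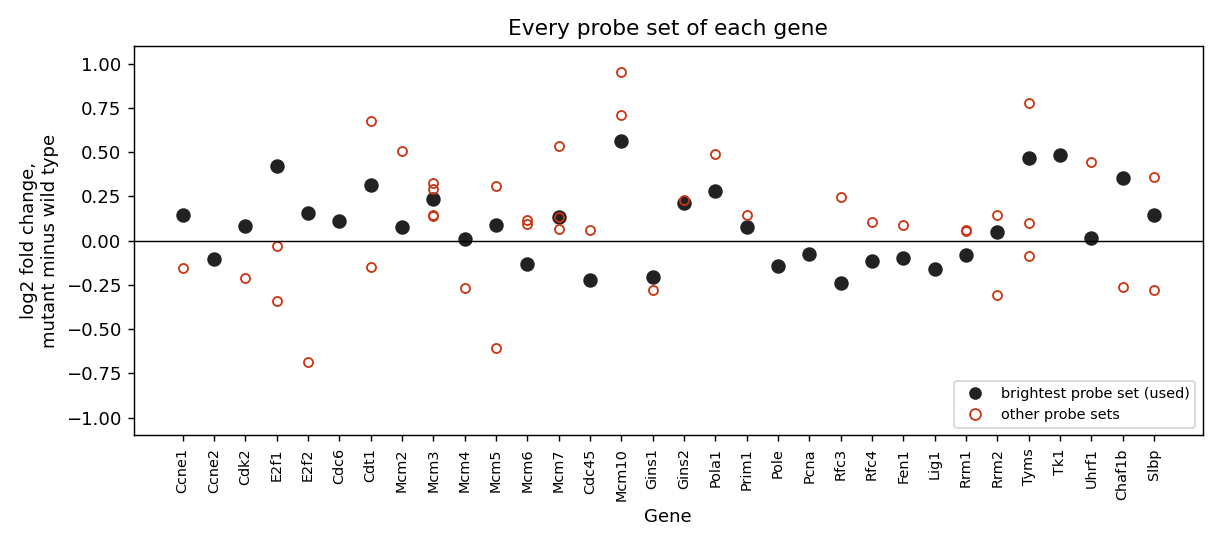
Log2 fold change, mutant minus wild type, of each of the 73 probe sets (vertical axis), by gene; filled points are the probe sets used and open points the dimmer ones. The 3 probe sets of Mcm10 lie at 0.56 to 0.95, while those of E2f2 lie at 0.16 and -0.69.

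For 9 genes the brightest probe set has a name ending in _s_at or _x_at, endings that this platform gives to probe sets matching several transcripts or sharing probes with other sequences. Such probe sets were left out for every gene in an alternative chosen after the data were examined, which kept 17903 genes. The median of the 32 genes was then 0.11, against -0.07 over all genes. Of the 32, 0 were called. Mcm2 had 0.50 ± 0.19 (SE; limma adjusted p = 0.45) by its other probe set, against 0.07 by its brightest. Mcm7 had 0.53 ± 0.23 and Mcm5 0.31 ± 0.22 in that table, against 0.13 and 0.09 by their brightest probe sets.

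The sequence that E2F factors read was more frequent in promoters of these genes than in those of protein-coding genes at large. Promoters of other replication and S phase genes shared this. The windows, credited to RefSeq on GRCm38.p6, run from 250 bases before to 50 after an annotated start, and 28 of the 33 genes matched, with 34 windows. The E2F core was searched as TTCCCGC or TTGGCGC or TTCGCGC or TTGCCGC, the CCAAT box as CCAAT and the cell cycle homology region of G2/M promoters as TTTGAA, each on both strands, with matches that share bases counted separately. An E2F core was present for 19 of 28 genes (67.9%), against 13.7% of 17492 protein-coding genes and 15.4% of 26 G2/M genes. Of 42 other replication and S phase genes, 54.8% had one. A CCAAT box was present for 64.3%, against 42.3% of protein-coding genes. Its share was 52.4% in the other replication and S phase genes and 80.8% in the G2/M genes. The TTTGAA motif was present for 14.3%, against 18.5% of protein-coding genes and 69.2% of G2/M genes. These shares describe letters in windows, not binding.

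The windows of Mcm6 and Pola1 are printed because they hold the most E2F core matches, and those of Mcm10 and Tk1 because these genes had the lowest p-values. Capitals mark E2F core and CCAAT matches on either strand, and each window reads in the direction of its gene. Mcm6 (GRCm38.p6 chr1:128359656-128359955, minus strand) has 5 E2F core matches in 3 stretches and 2 CCAAT boxes, and Pola1 (chrX:93632106-93632405, minus strand) has 4 and 1. Mcm10 (chr2:5012742-5013041, minus strand) has 3 CCAAT boxes and 0 E2F core matches, and Tk1 (chr11:117825965-117826264, minus strand) has 0 of either.
Mcm6: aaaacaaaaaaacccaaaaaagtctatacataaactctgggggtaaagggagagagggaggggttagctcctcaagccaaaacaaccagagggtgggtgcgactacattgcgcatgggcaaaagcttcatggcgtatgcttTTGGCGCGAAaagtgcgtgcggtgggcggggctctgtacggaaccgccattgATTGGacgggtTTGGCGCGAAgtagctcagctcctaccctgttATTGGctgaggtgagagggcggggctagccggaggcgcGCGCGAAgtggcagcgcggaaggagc
Pola1: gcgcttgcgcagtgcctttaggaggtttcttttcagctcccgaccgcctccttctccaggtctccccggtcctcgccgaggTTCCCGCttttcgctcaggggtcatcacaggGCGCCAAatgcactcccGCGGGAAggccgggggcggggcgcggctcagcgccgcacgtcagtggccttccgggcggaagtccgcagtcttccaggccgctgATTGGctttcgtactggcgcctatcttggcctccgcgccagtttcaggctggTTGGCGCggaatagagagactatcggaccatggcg
Mcm10: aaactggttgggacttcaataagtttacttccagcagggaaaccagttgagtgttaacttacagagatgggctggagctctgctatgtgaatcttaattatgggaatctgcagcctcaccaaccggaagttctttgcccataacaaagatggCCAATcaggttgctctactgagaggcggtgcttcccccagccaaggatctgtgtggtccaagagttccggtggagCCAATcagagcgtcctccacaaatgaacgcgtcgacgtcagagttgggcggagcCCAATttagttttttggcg
Tk1: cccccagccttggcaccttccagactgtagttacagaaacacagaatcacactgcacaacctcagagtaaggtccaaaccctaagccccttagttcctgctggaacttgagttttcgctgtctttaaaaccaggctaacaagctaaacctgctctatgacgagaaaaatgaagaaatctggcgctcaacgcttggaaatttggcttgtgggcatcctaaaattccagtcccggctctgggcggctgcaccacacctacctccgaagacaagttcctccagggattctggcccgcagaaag

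Log2 fold changes are given by presence of the E2F core, with no test between the sets of genes. The 18 measured genes with a match had a median log2 fold change of 0.08, from -0.24 to 0.35, and 12 were positive. The 9 measured genes with a window and no match had a median of 0.15, from -0.22 to 0.56, and 7 were positive. These ranges overlap. The genes without a match were Mcm10 (0.56), Tk1 (0.48), Tyms (0.47), E2f1 (0.42), Slbp (0.15), Ccne1 (0.14), Mcm2 (0.07), Pcna (-0.07) and Cdc45 (-0.22). No match says only that these letters are not in this window. A window follows an annotated start, and whether it holds the main promoter of its gene was not checked, that of E2f1 included. The set without a match may therefore hold genes whose main promoter was not searched.

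**Figure D5:**
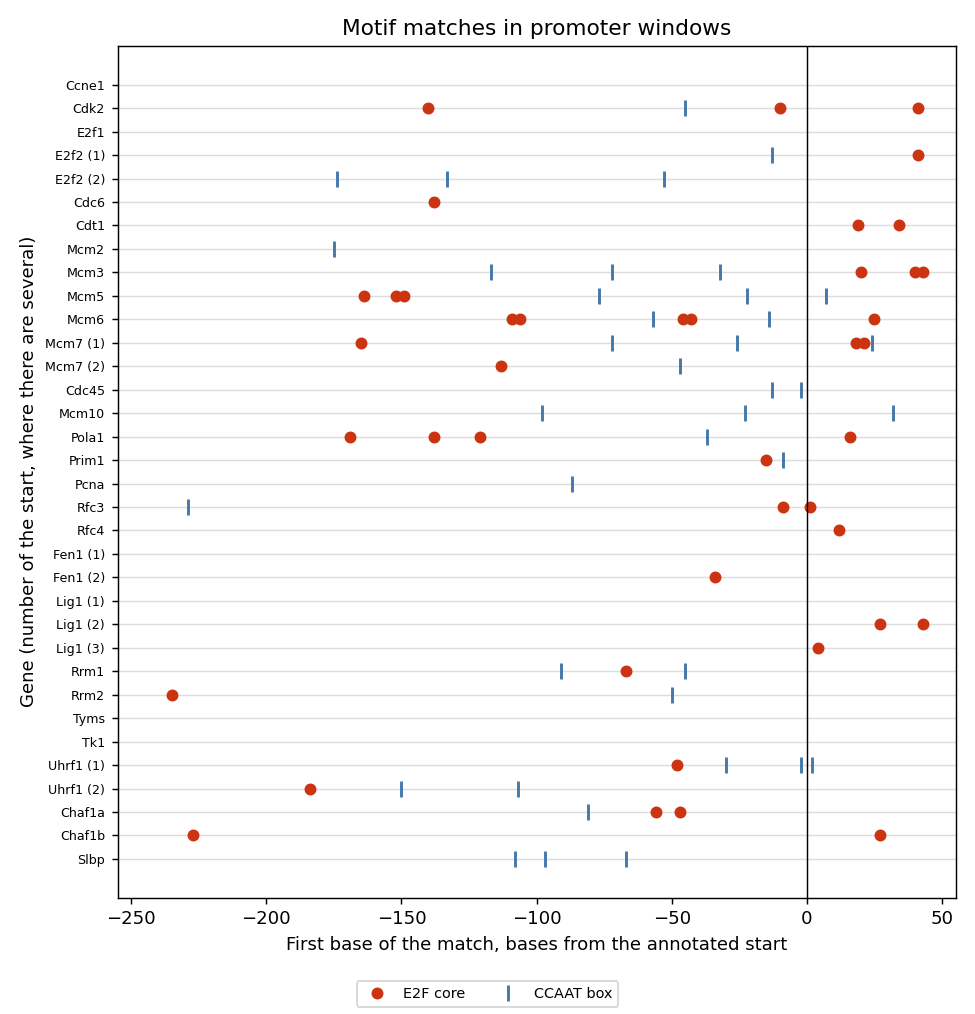
First base of each E2F core match (red points) and CCAAT box (blue bars) in the 34 promoter windows, in bases from the annotated start (vertical line), by gene. E2F core matches lie on both sides of the start, from -235 to 43, and 10 of 42 begin within the 100 bases before it.

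Other genes of the same machinery were measured too. Of 53 further replication and S phase genes, 0 were called, 2 were higher and 1 lower at an unadjusted p under 0.05, and the median log2 fold change was 0.12. Pold3, a subunit of DNA polymerase delta, had the smallest p, at -0.52 ± 0.18 (SE; limma adjusted p = 0.40). Ticrr, which brings CDC45 to origins, had 0.79 ± 0.29, the nuclease gene Exo1 0.50 ± 0.19 and the MCM-binding gene Mcmbp 0.45 ± 0.21. Ticrr stood at 8.86, 7.97 and 7.86 on wild type arrays 1 to 3 and at 8.78 to 9.29 on mutant arrays. With the Y-linked covariate the log2 fold change was -0.35 for Pold3, 0.21 for Ticrr, 0.71 for Exo1 and 0.24 for Mcmbp.

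The upstream switches gave no called gene either. Of 11 further E2F, DP and pocket protein genes, 0 passed even unadjusted, with a median of -0.03, and the smallest p was that of E2f3 (0.35 ± 0.18), ahead of E2f8 (0.33 ± 0.17), Rbl2 (-0.41 ± 0.26) and E2f6 (0.35 ± 0.23). With the Y-linked covariate the log2 fold change was 0.10 for E2f3, 0.08 for E2f6 and 0.57 for E2f8. Of 9 regulators of cyclin E and CDK2, Cdkn1a, the CDK inhibitor p21, had a log2 fold change of 0.60 ± 0.25 (SE; limma adjusted p = 0.48) and was the 1 gene past an unadjusted p of 0.05. Cdkn1c, the inhibitor p57, had -0.63 ± 0.28, Skp2 0.22 ± 0.18 and Cdk7 0.37 ± 0.30. The same covariate moved Cdkn1a to 0.96, Cdkn1c to -0.41 and Cdk7 to 0.14. Of 9 genes of D cyclins, their kinases and inhibitors, Ccnd1, which acts before cyclin E, had -0.95 ± 0.30 (limma adjusted p = 0.35; -0.46 with the Y-linked covariate), ahead of Cdk4 (0.29 ± 0.16), Cdkn2c (-0.29 ± 0.21) and Cdkn2d (-0.23 ± 0.22), and the median was -0.18. With the covariate, log2 fold changes were 0.46 for Cdk4, -0.54 for Cdkn2c and 0.01 for Cdkn2d. Of 29 G2/M genes, 0 were called, 2 were higher unadjusted and the median was 0.19. These were Hmmr (0.54 ± 0.15) and Aurkb (0.45 ± 0.17), followed by Cdc20 (0.38 ± 0.19) and Pttg1 (-0.43 ± 0.23). The covariate values were 0.58 for Hmmr, 0.22 for Aurkb, 0.56 for Cdc20 and -0.18 for Pttg1, and the median of the list was 0.29. No difference between these lists and the replication genes was tested.

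Marker lists of several differentiated cell types had larger median differences on the same arrays, with no test against the replication genes. Of 8 mast cell and basophil markers, 8 were positive and 6 higher at an unadjusted p under 0.05, with a median of 2.23 and a summed signal of 2130 to 2734 in wild type and 5721 to 8896 in mutant arrays. Of 9 macrophage and dendritic cell markers, 5 were higher, with sums of 1531 to 1680 and 3611 to 7825. Of 8 neutrophil markers, 7 were lower, with sums of 26366 to 34595 in wild type and 10865 to 14477 in mutant arrays. Lower at the same threshold were 3 of 5 megakaryocyte markers (4316 to 5006 and 1817 to 2806). So were 5 of 9 sort gate and stem cell markers (sums of 14921 to 18015 and 10793 to 12138). Erythroid, T and NK cell, and B cell markers had 0 past that threshold among 6 each. Those 5 were the stem cell genes Tek, Mecom, Hlf, Procr and Mllt3, none of them part of the sort gate as stated. The gate genes Kit and Flt3 had log2 fold changes of -0.11 ± 0.18 and -0.19 ± 0.32 (SE; limma adjusted p of 0.81 and 0.83). After adjustment in limma, 1 mast cell and basophil marker, 1 neutrophil marker and the stem cell gene Tek were called. In the macrophage and megakaryocyte lists 0 were called. With the Y-linked covariate the macrophage and dendritic cell median was 0.59 in place of 1.39, and the megakaryocyte one -0.38 in place of -0.71. The mast cell and basophil median was 2.21 in place of 2.23, and the neutrophil one -2.78 in place of -2.46. That of the sort gate and stem cell list was -0.76 in place of -0.62. The summed signal of the 32 replication and G1/S genes was 84978 to 90174 in wild type and 89015 to 93654 in mutant arrays. No marker was at 0, since the deposited values have no zeros, and the part of these cell types in the values of Mcm10 and Tk1 was not tested.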

How the data were processed

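Biotin-labelled cDNA, amplified by Ovation Pico WTA from PicoPure RNA per the labels' protocols, was hybridised to 6 arrays. The authors deposited an intensity for every probe set, computed by RMA according to the submitters' processing notes. RMA corrects background, normalizes arrays to each other and summarises probes, with a version not given in the sources used here. Since the deposited intensity is linear (7.60 to 33795.5), it was converted to log2. Of 45101 probe sets, 34945 named 1 gene in the annotation table. The Entrez identifiers of all 32 measured members matched the GRCm38.p6 gene table. The brightest probe set by mean stood for each of 18193 genes, without a filter on dim genes.

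Mutant and wild type arrays, 3 each, were compared in limma 3.58.1 under R 4.3.3 (lmFit, eBayes, no covariate). Tests were two-sided, with Benjamini-Hochberg adjustment over all genes and calls at an adjusted p under 0.05. Errors are limma's SE or, for means, SD, and the number of arrays limits the precision. The members, lists, motifs and tests were chosen with earlier results of these data known. Named genes are all members, and up to 4 genes of smallest p from each comparison list. The fit was tested on simulated data. Alternatives are given in the closing section.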

Additional observations from a re-analysis of the deposited data

How the results depend on the processing

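In limma, 0 members were called under each alternative run. These were a replicate block, median centring, repeated quantile or cyclic loess normalization, averaged probe sets, all probe sets kept separate, the dimmest 25% or 50% of genes dropped, trend with robust fitting, array weights, an adjusted p under 0.10, a 2-fold minimum, the Y-linked covariate, the arrays with Y-linked signal dropped, _s_at and _x_at probe sets dropped, and each array left out in turn. Deviations of same-numbered arrays from their group means correlated at 0.18, -0.026 and 0.063, so the numbers were not taken as pairs, and the replicate block gave 2 members at an unadjusted p under 0.05 and a median of 0.079, with 10 genes called in place of 20. The 2 members at an unadjusted p under 0.05 became 1 after quantile or cyclic loess normalization, where 1814 and 1823 of all genes passed. With all probe sets separate, 6 members had a probe set that passed. Over all probe sets, 3280 of 34945 passed. The first number counts genes, which have up to 5 probe sets each among the members, and the second counts probe sets. The 2 shares are therefore not comparable. Trend and robust fitting gave 4, and its calls over all genes were 40 in place of 20. Its share of all genes at the unadjusted threshold is not given here, so the 4 is not read as a rise. Leaving out 1 array gave 0 (mutant array 2 or 3) to 3 members, and 1 without wild type array 2 or 3. Among these fits the number over all genes is given only without wild type array 1, so the other counts are not compared. Of all 18193 genes, 1828 passed in the main analysis and 3938 without wild type array 1, which gave 3 members. The median log2 fold change of 0.079 was 0.024 after quantile normalization, 0.023 after cyclic loess, 0.014 with averaged probe sets, 0.031 with the Y-linked covariate and 0.024 with those arrays dropped. With 1 array left out it ran from 0.030 to 0.11, the lowest without mutant array 2, and was 0.045 without wild type array 3. Over all genes, limma called 20, and 0 with the Y-linked covariate or its arrays dropped, 6 after quantile normalization and 40 with trend and robust fitting. With all probe sets separate a member has no single value. Under the other alternatives that refit the members, 12 kept their sign by the value that stood for the gene, Mcm10 and Tk1 among them, and 20 reversed at least once. Of those 12, E2f1, Cdt1, Tyms, Chaf1b and Slbp each had a dimmer probe set of opposite sign. The cause was not tested. Quantile normalization turned the sign, giving -0.042 for Mcm4 and -0.038 for Uhrf1. Cyclic loess gave 0.029 for Ccne2, -0.051 for Mcm4 and -0.044 for Uhrf1. Averaged probe sets gave -0.0044 for Ccne1, -0.064 for Cdk2, -0.27 for E2f2, -0.13 for Mcm4, -0.069 for Mcm5, 0.027 for Mcm6, 0.0028 for Rfc3, 0.011 for Rrm1 and -0.037 for Rrm2. Array weights gave -0.0080 for Uhrf1. The Y-linked covariate gave 0.073 for Cdc45, -0.036 for Cdk2, -0.19 for E2f2, -0.16 for Mcm4, -0.026 for Mcm5, 0.0017 for Pcna, -0.043 for Pola1, -0.042 for Prim1, 0.32 for Rfc3 and 0.038 for Rfc4. With the 2 arrays of Y-linked signal left out, values were 0.10 for Cdc45, -0.065 for Cdk2, -0.19 for E2f2, -0.19 for Mcm4, -0.057 for Mcm5, 0.0018 for Pcna, -0.094 for Pola1, -0.052 for Prim1, 0.36 for Rfc3 and 0.051 for Rfc4. With _s_at and _x_at probe sets left out, values were -0.15 for Ccne1, 0.091 for Fen1, 0.12 for Mcm6, 0.10 for Rfc4 and -0.30 for Rrm2. With 1 array left out, log2 fold changes ran from -0.34 to 0.13 for Ccne2, -0.033 to 0.39 for Gins2, -0.048 to 0.093 for Uhrf1, -0.036 to 0.33 for E2f2, -0.13 to 0.10 for Mcm4, -0.060 to 0.16 for Mcm5, -0.025 to 0.27 for Cdk2, -0.034 to 0.19 for Prim1, -0.33 to 0.010 for Gins1, -0.31 to 0.026 for Pole and -0.028 to 0.13 for Rrm2. Where wild type array 1 is the only control, it is assumed to vary like the other arrays.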
